A study of Rattus norvegicus with 10 samples.

Results

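Interferon-responsive genes are the genes that cells switch on when interferon, or a signal that works through the same factors, reaches them. A list of 41 such genes was followed through the neurointermediate lobe of the rat pituitary after dehydration. A gene was represented by the array probe set that the platform annotation gives to that symbol alone, and where there were several, by the one with the highest mean signal over all 10 arrays. Of the 41 listed genes, 39 had such a probe set, among 14217 genes with one on this array. Ifi47 and Xaf1 had none. A further 3, Ifit3, Ifih1 and Cxcl10, fell below a filter that kept the brightest 60% of probe sets, so that 36 of the 41 were tested, among 10593 tested genes.

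The tissue came from male Sprague Dawley rats aged 10 to 12 weeks, either dehydrated for 3 days or kept as controls. Each of 5 arrays a group carried RNA pooled from 5 separate animals, so a spread between arrays is one between pools. The sample labels and the series title name the neurointermediate lobe, while the design text names the supraoptic nucleus. Markers of the lobe were present on every array: the melanotroph gene Pomc gave signals of 491.3 to 1089.7, and Avp, the vasopressin mRNA carried in the nerve endings of the lobe, gave 717.4 to 2513.2. Arrays are numbered within each group in the order of deposition, and a number shared between the groups carries no meaning. The deposited signals are linear values that had been scaled to the same mean on all arrays, and median signals lay between 35.7 and 39.6. Over all tested probe sets, 1.68% were called higher and 0.784% lower in dehydrated rats (limma with Benjamini-Hochberg adjustment over 18625 probe sets, adjusted p under 0.05).

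Type I interferons bind a receptor at the cell surface, and the signal reaches the nucleus through factors that include Stat2 and Irf9. These act on the interferon-stimulated response element (ISRE) in the promoters of their target genes, while interferon gamma acts mainly on another element, the gamma-activated site (GAS). The products block viruses at the membrane and in the cytoplasm, mark proteins with the ubiquitin-like Isg15, and raise the supply of peptides shown on class I molecules. Resting tissues, the nervous system included, express many of these genes at a low level.

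Of the 36 tested genes, 9 were called higher in dehydrated rats and 0 lower. They were Isg15, Usp18, Ifitm1, Ifitm2, Ifitm3, Oas1a, B2m, Ifi27l2b and Rtp4. The log2 change was positive for 31 of the 36 and negative for 5, where 47.4% of all tested probe sets were positive. Its median over the 36 genes was 0.28, with a range from -0.38 for Tap2 to 1.33 for Isg15, beside a median of -0.01 over all tested probe sets. Changes are on the scale of log2(signal + 5), which understates those of dim genes. At an unadjusted p under 0.05 in limma, 20 of the 36 were higher and 0 lower, where 8.7% and 8.66% of all tested probe sets were. For 7 of the 36 genes the lowest dehydrated array lay above the highest control array, which held for 2.78% of all tested probe sets, and for 0 of the 36 the groups lay apart in the other direction, as they did for 1.81% of all tested probe sets. In RNA from a whole lobe, more cells of a type and more RNA per cell cannot be told apart.

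**Figure D1:**
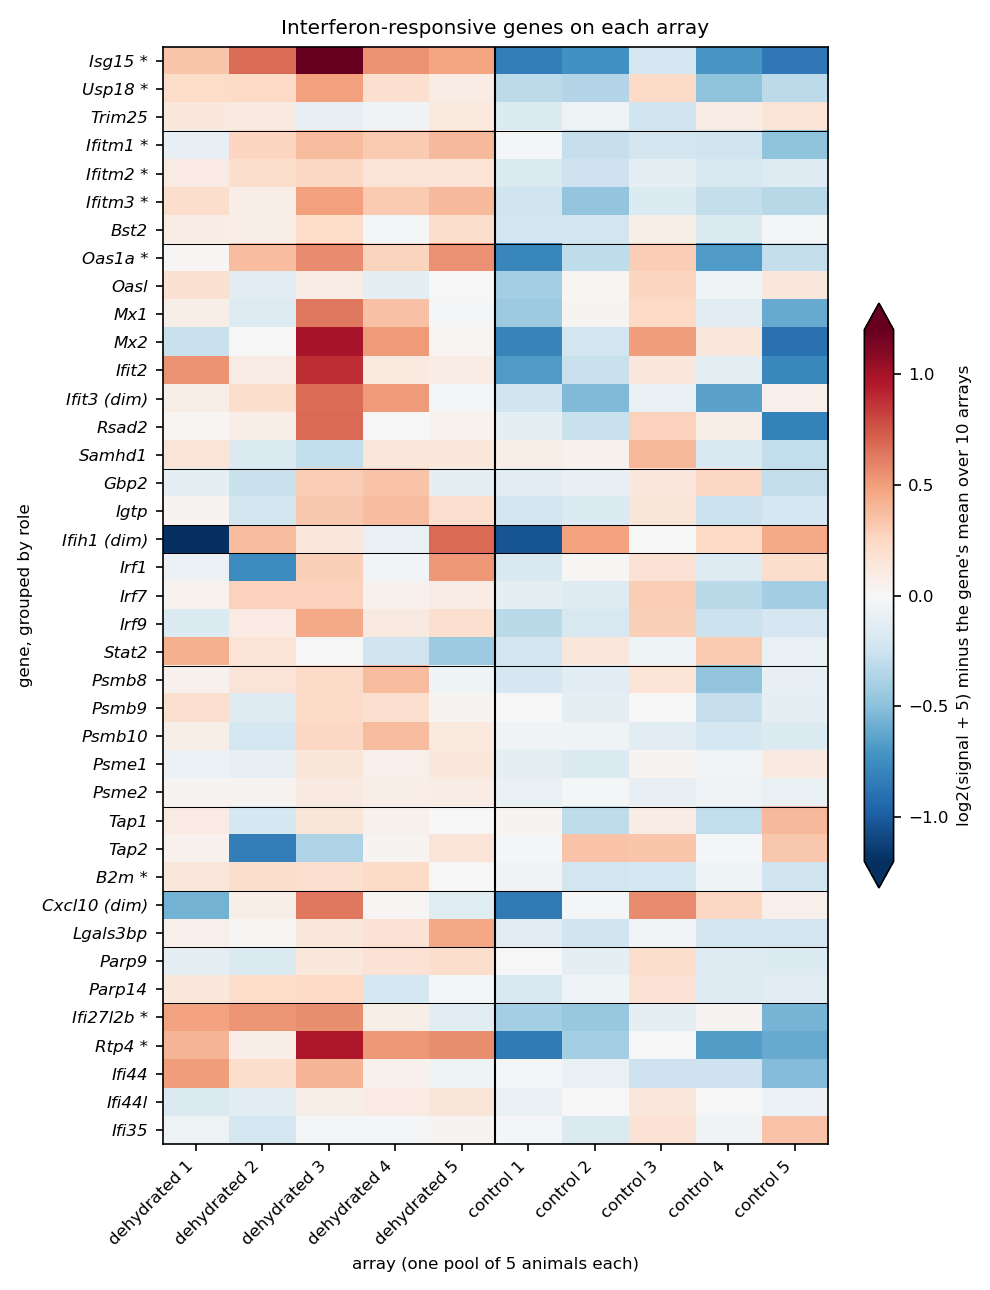
Level of the 39 genes with a probe set (3 of them marked dim and not tested; stars mark the 9 called) on each of the 10 arrays, as log2(signal + 5) minus the gene's mean over all arrays (colour scale; red above the mean, blue below), grouped by role. Dehydrated 3 and control 3 hold the highest value of their group for 18 and 22 of the 36 tested genes.

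**Figure D2:**
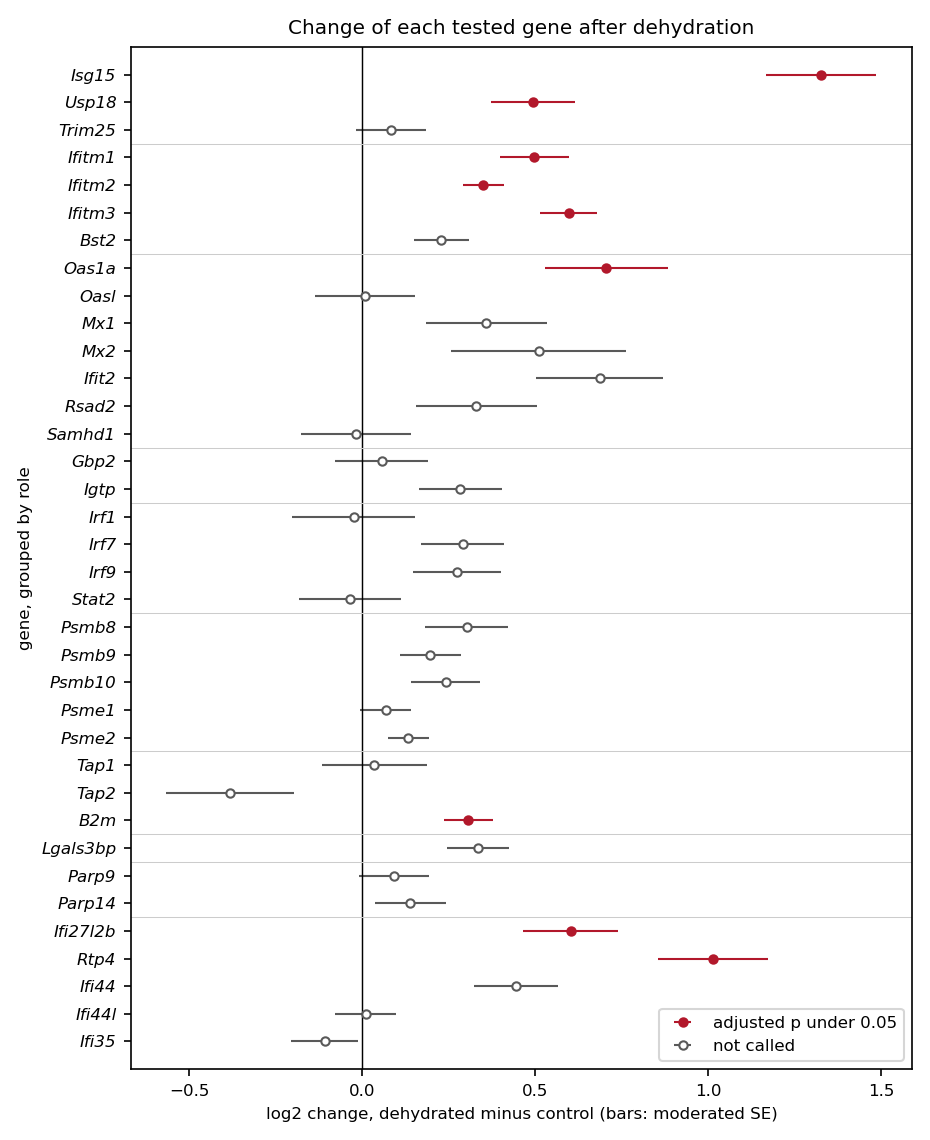
Log2 change, dehydrated minus control, on the scale of log2(signal + 5) for the 36 tested genes (points, with the moderated standard error as bars), grouped by role. The 9 genes called at an adjusted p under 0.05 in limma all lie to the right of 0, led by Isg15 at 1.33 and Rtp4 at 1.01.

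The promoters of the listed genes were read for both elements, and the windows below show the letters behind the counts. RefSeq promoters of assembly GRCr8, from 250 bases before to 50 after the transcript start, were held for 34 of the 41 genes. Not among them are Isg15, Usp18, Ifitm1, Mx2, Ifit2, Ifi27l2b and Rtp4. The ISRE core was searched as GAAA, any 2 letters and GAAA again, and the GAS core as TTC, any 3 letters and GAA, each on both strands. The ISRE core was in 22 of the 34 promoters (64.7%), compared with 1312 of 33469 promoters in the table (3.92%). The GAS core was in 11 of the 34 (32.4%), compared with 8.87% of the table. In 21 of the 22 every ISRE core began before the transcript start, though that of Psmb8, beginning at base -4, ran across the start. In 1 of the 22, that of Bst2, an ISRE core overlapped a GAS core. All 4 promoters held for the genes called higher contain the ISRE core. Ifitm2 and Ifitm3 are neighbours on chromosome 1 and share the 10 letters of the core, so the 200 bases before each start are shown whole, on the strand of the gene, with the ISRE core in capitals. The Ifitm2 stretch is chr1:205482349-205482548 (minus strand) and the Ifitm3 stretch is chr1:205541759-205541958 (minus strand).
Ifitm2: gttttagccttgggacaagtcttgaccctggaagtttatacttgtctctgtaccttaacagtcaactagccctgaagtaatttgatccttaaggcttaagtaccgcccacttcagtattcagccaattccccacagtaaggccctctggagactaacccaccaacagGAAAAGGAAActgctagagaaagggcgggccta
Ifitm3: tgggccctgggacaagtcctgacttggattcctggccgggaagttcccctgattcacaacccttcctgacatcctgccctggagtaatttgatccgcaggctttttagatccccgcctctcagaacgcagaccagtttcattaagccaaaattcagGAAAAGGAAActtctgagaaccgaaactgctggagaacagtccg
For 6 further genes described below, 30 bases around the ISRE core are shown in the same way. Oas1a (chr12:41330418-41330447, plus strand) and B2m (chr3:129549170-129549199, plus strand) were called higher. Bst2 (chr16:18255076-18255105, minus strand), Rsad2 (chr6:48788248-48788277, minus strand), Igtp (chr10:42874934-42874963, plus strand) and Psme2 (chr15:33052785-33052814, minus strand) were not called. TTTC in capitals marks a core on the opposite strand.
Oas1a: ctctcggGAAATGGAAACTGAAAatcttgt
B2m: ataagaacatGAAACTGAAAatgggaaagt
Bst2: tttccagGAAAATGAAACTGAAAggtggca
Rsad2: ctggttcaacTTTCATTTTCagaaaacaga
Igtp: tccaggaaccGAAACTGAAAgcagttctgg
Psme2: cctggagagtGAAAGCGAAAgctggggctg
In Oas1a and in Bst2 overlapping cores run on from one another, so that the capitals are longer than 10 letters. Of the 25 tested but not called genes with a promoter entry, 14 (56.0%) hold the core, so that it was found among genes on both sides of the call. A match describes these letters only.

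Isg15 encodes the ubiquitin-like protein that interferon attaches to other proteins, and it had the largest change of the 36 genes. Its signals were 268.5, 341.8, 530.0, 310.9 and 297.3 on dehydrated arrays 1 to 5, and 117.5, 126.7, 183.9, 128.8 and 115.0 on control arrays 1 to 5. Every dehydrated array lay above every control array, and array 3 was the highest of each group by a wide gap. The means were 349.7 ± 104 and 134.4 ± 28.3 (SD, n = 5 each), and the gene was 2.51-fold higher in dehydrated rats (log2 1.33, SE 0.16, adjusted p = 0.000218 in limma). Usp18 encodes the protease that removes Isg15 again and that also restrains the type I receptor. It read 217.1, 220.5, 263.6, 212.8 and 198.1 on the dehydrated arrays and 148.4, 144.6, 218.2, 132.0 and 148.5 on the control arrays. Control 3 alone reached into the dehydrated range, and the other 4 control arrays lay below all of it. The gene rose 1.41-fold (log2 0.49, SE 0.12, adjusted p = 0.0390 in limma). That call was lost when any 1 of 8 arrays was left out (dehydrated 1, 2, 3 or 4, or control 1, 2, 4 or 5), with adjusted p between 0.0589 and 0.125. Trim25, a ubiquitin ligase of the same system, had a log2 change of 0.08 (adjusted p = 0.723 in limma).

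The Ifitm proteins sit in cell membranes and hinder the fusion of enveloped viruses, and all 3 genes measured here were higher in dehydrated rats. Ifitm3 read 1205.2, 1100.7, 1460.6, 1293.4 and 1358.2 on the dehydrated arrays and 879.4, 746.4, 924.8, 853.2 and 823.1 on the control arrays. The groups did not overlap, and the gene was 1.51-fold higher (log2 0.60, SE 0.08, adjusted p = 0.000733 in limma). Ifitm2 read 1184.7, 1277.6, 1310.2, 1232.0 and 1239.7 against 979.0, 926.5, 1026.0, 966.8 and 995.2. Its spread within a group was narrow and the groups did not overlap, so that a change of 1.27-fold was called (log2 0.35, SE 0.06, adjusted p = 0.00443 in limma). Ifitm1 read 491.5, 630.9, 685.5, 656.7 and 691.9 against 517.2, 435.3, 450.8, 446.0 and 374.8. Dehydrated 1 lay far below the other 4 dehydrated arrays and below control 1, the one point where the groups overlapped. Ifitm1 rose 1.41-fold (log2 0.50, SE 0.10, adjusted p = 0.0130 in limma), and without dehydrated 3 the adjusted p was 0.0518. The 3 genes are close relatives, and how far one transcript binds another's probes was not tested. Bst2, or tetherin, which holds budding virus at the cell surface, ranged from 466.2 to 554.0 in dehydrated rats and from 405.8 to 498.1 in controls, and was not called (log2 0.23, adjusted p = 0.145).

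Of the antiviral proteins that act inside the cell, 1 of 7 tested was called. Oas1a, which makes the 2'-5' oligoadenylates that activate RNase L, read 78.0, 101.4, 117.1, 94.1 and 115.1 on the dehydrated arrays and 42.8, 61.5, 96.0, 46.5 and 62.3 on the control arrays. Control 3 lay among the dehydrated arrays and the other 4 control arrays below them. It rose 1.63-fold (log2 0.71, SE 0.18, adjusted p = 0.0463 in limma), and the call was lost when any 1 of 7 arrays was left out (dehydrated 2, 3 or 4, or control 1, 2, 4 or 5), with adjusted p between 0.0666 and 0.133. Mx1 and Mx2 encode dynamin-like GTPases that trap viral components. Mx2 read 186.3, 226.3, 451.7, 323.4 and 229.5 against 127.0, 193.0, 320.8, 247.2 and 118.9, the widest spread within a group of any tested listed gene. The groups overlapped and the change was not called (log2 0.51, SE 0.25, adjusted p = 0.316 in limma). A dimmer probe set of Mx2 gave 0.68 (adjusted p = 0.127 in limma) and was not called either. Mx1 ranged from 66.1 to 117.9 and from 47.0 to 88.6 (log2 0.36, adjusted p = 0.305). Rsad2, or viperin, which makes a chain-terminating nucleotide, read 151.9, 158.6, 241.8, 149.5 and 153.8 against 138.6, 123.4, 181.8, 158.3 and 83.1. Dehydrated 3 stood apart from 4 dehydrated arrays that lay close together, and the groups overlapped (log2 0.33, adjusted p = 0.348). Ifit2, which binds viral RNA, ranged from 107.4 to 189.6 in dehydrated rats and from 56.7 to 109.9 in controls. Its change of log2 0.69 (SE 0.18) was of the size of that of Oas1a but missed the threshold (adjusted p = 0.0614 in limma), and it passed without control 3 or without dehydrated 5, at 0.0302 at the lowest over the alternatives run. A dimmer probe set of Ifit2 gave a log2 change of 0.30 (adjusted p = 0.392 in limma). Ifit3, a relative of Ifit2, was too dim to be tested, with signals of 15.2 to 27.6 and 8.2 to 16.4. Oasl, with a log2 change of 0.01, and Samhd1, a nucleotide hydrolase, with -0.02, were not called either.

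**Figure D3:**
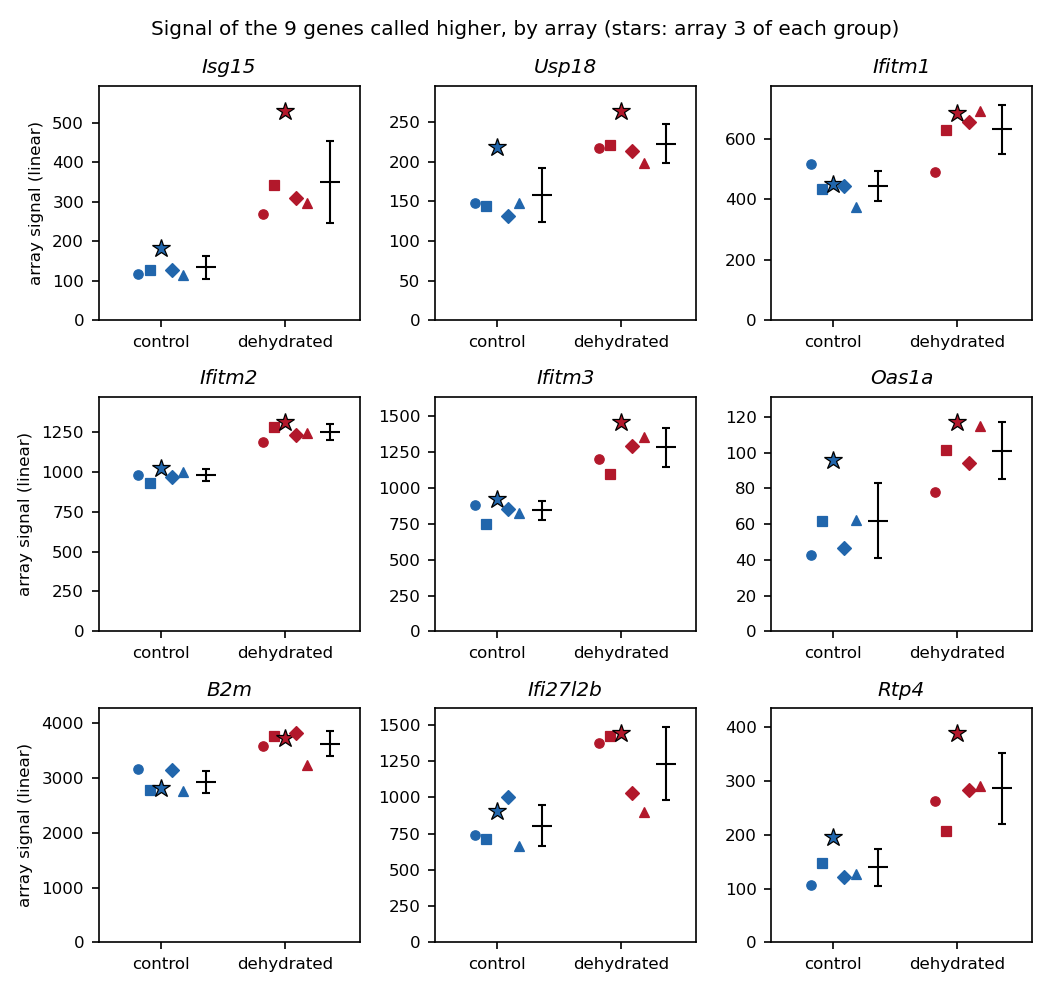
Linear array signal of the 9 genes called higher, 1 panel a gene, for the 5 control and 5 dehydrated arrays (points, with array 3 of each group as a star; the bar beside each group is its mean ± SD, n = 5; axes start at 0). The groups lie apart for Isg15, Ifitm2, Ifitm3, B2m and Rtp4 and overlap for the other 4.

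The transcription factors of the pathway were not called by the probe sets chosen for them. Irf9, a DNA-binding partner of Stat2, read 140.7, 169.7, 218.8, 170.9 and 181.9 on the dehydrated arrays and 125.7, 138.0, 194.2, 132.1 and 136.9 on the control arrays. All dehydrated arrays lay above the 4 control arrays other than control 3, which exceeded all but dehydrated 3 (log2 0.27, SE 0.13, adjusted p = 0.277 in limma). A dimmer probe set of Irf9 read 129.6, 152.8, 149.9, 158.0 and 140.6 against 81.8, 89.4, 132.2, 87.3 and 92.0, and passed the threshold (log2 0.59, SE 0.12, adjusted p = 0.0135 in limma). The probe sets of Irf9 thus gave different calls, and in both control 3 was the highest control array. Irf7, which amplifies the type I response, ranged from 160.7 to 190.2 and from 115.4 to 192.6 (log2 0.29, adjusted p = 0.223). Irf1, a factor induced by interferon gamma, read 164.5, 99.4, 211.4, 168.6 and 249.9 against 151.3, 174.4, 195.3, 154.6 and 201.0. Dehydrated arrays held both the lowest and the highest of these values, and the log2 change was -0.02 (adjusted p = 0.963). Stat2 had a log2 change of -0.04 (adjusted p = 0.932). Igtp, an interferon-gamma-induced GTPase of vacuole membranes, read 138.6, 115.3, 170.9, 176.9 and 156.4 against 115.4, 120.1, 150.8, 112.5 and 116.4. Control 3 stood apart from the other control arrays, dehydrated 2 lay within their range, and the gene was not called (log2 0.28, adjusted p = 0.238). Gbp2, a guanylate-binding GTPase, had a log2 change of 0.06, and the RNA sensor Ifih1, at 1.3 to 19.0 over all arrays, was too dim to be tested.

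On the antigen presentation side, B2m, the light chain that every class I molecule needs, was the 1 gene called of 8. It read 3585.7, 3777.4, 3733.4, 3823.9 and 3246.0 on the dehydrated arrays and 3165.3, 2793.0, 2816.5, 3152.4 and 2763.7 on the control arrays. The groups did not overlap and B2m rose 1.24-fold (log2 0.31, SE 0.07, adjusted p = 0.0283 in limma). The call was lost when any 1 of 7 arrays was left out (dehydrated 1, 2, 3 or 4, or control 2, 3 or 5), with adjusted p between 0.0568 and 0.0894, and under quantile normalization the log2 change was 0.07 (adjusted p = 0.641). A dimmer probe set of B2m gave 0.13 (adjusted p = 0.408). The catalytic subunits Psmb8, Psmb9 and Psmb10, which replace the standard subunits of the proteasome when interferon acts, and the activator subunits Psme1 and Psme2 all had positive log2 changes, from 0.07 to 0.30, and 0 of the 5 was called in limma (4 at an unadjusted p under 0.05). Psme2 read 887.0, 886.6, 935.9, 918.3 and 922.5 against 818.3, 859.1, 811.1, 840.8 and 817.4. The groups lay apart with little spread in either, but the change was small (log2 0.13, SE 0.06, adjusted p = 0.250). Of the peptide transporter, Tap1 had a log2 change of 0.03 (adjusted p = 0.937) and Tap2 one of -0.38 (adjusted p = 0.297).

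Among the remaining genes, Rtp4, a chaperone that brings certain receptors to the cell surface, had the second largest change. It read 262.4, 208.0, 389.4, 283.9 and 291.0 on the dehydrated arrays and 106.8, 147.3, 195.7, 121.7 and 127.3 on the control arrays. The groups did not overlap, and Rtp4 was 2.02-fold higher in dehydrated rats (log2 1.01, SE 0.16, adjusted p = 0.00199 in limma). Ifi27l2b, a small interferon-induced membrane protein, read 1375.0, 1422.7, 1443.4, 1028.0 and 897.6 against 740.4, 715.2, 905.0, 1003.4 and 664.1. Dehydrated 1, 2 and 3 lay close together above all controls, while dehydrated 5 fell within the control range. Ifi27l2b rose 1.52-fold (log2 0.60, SE 0.14, adjusted p = 0.0264 in limma), and the call was lost when any 1 of 6 arrays was left out (dehydrated 1, 2 or 3, or control 1, 2 or 5), with adjusted p between 0.0570 and 0.0937. Lgals3bp, a secreted glycoprotein that binds galectins, read 289.1, 279.2, 304.5, 313.0 and 384.1 against 253.8, 233.9, 270.7, 237.5 and 238.0. Its groups did not overlap and its change just missed the threshold (log2 0.33, SE 0.09, adjusted p = 0.0596 in limma), passing it without dehydrated 2. Ifi44 ranged from 130.2 to 194.6 and from 93.4 to 134.1 (log2 0.44, adjusted p = 0.0671), and passed without dehydrated 5, at 0.0140 at the lowest over the alternatives run. The chemokine Cxcl10 was too dim to be tested, with signals of 13.0 to 36.4 and 9.8 to 34.6. Parp9 and Parp14, which work on ADP-ribose, had log2 changes of 0.09 and 0.14, Ifi44l one of 0.01 and Ifi35 one of -0.11, none of them called.

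The calls of Isg15, Ifitm2, Ifitm3 and Rtp4 held in all 23 alternatives run, among them each array left out in turn. The count of 9 fell to 4 without dehydrated 3, and to 5 without control 2 and without control 5. The calls over all probe sets fell as well without dehydrated 3, to 142 higher from 312.

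The values above repeatedly put array 3 at the top of its group, in dehydrated and in control rats. Dehydrated 3 was the highest dehydrated array for 18 of the 36 genes (50%), where it was so for 16% of all tested probe sets. Under quantile or cyclic loess normalization it was so for fewer of the genes, as given in the last section. Control 3 was the highest control array for 22 of the 36 (61.1%), where the share over all tested probe sets was 15.5%. Both held for 14 genes, namely Isg15, Usp18, Ifitm2, Ifitm3, Bst2, Oas1a, Mx1, Mx2, Ifit2, Rsad2, Irf9, Psmb9, Parp14 and Rtp4, where 2.17% of all tested probe sets had both. The pair with the next most genes, dehydrated 5 and control 3, had 3. Of the 14 genes, Mx2, Ifit2, Irf9 and Parp14 also had a dimmer tested probe set, and none of these was highest on both arrays. Dehydrated 3 was the highest dehydrated array on those of Mx2, Ifit2 and Parp14. Control 3 was the highest control array on that of Irf9 only. The high level on array 3 was looked for because single arrays with high levels were known from earlier results of these data, so these shares are a description.

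In size, the median difference of dehydrated 3 from the mean of the other 4 dehydrated arrays was 0.16 (log2) over the 36 genes, and that of control 3 from the other 4 control arrays was 0.21. Over all tested probe sets both medians were near 0, at 0.002 and 0.004. Medians of other lists on these arrays are given below with the cell type markers. The remaining 8 arrays had medians over the 36 genes between -0.16 and 0.02, and dehydrated 2 was the lowest. Of the 36 genes, 32 were above the mean of the other arrays on dehydrated 3 and 30 on control 3.

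**Figure D4:**
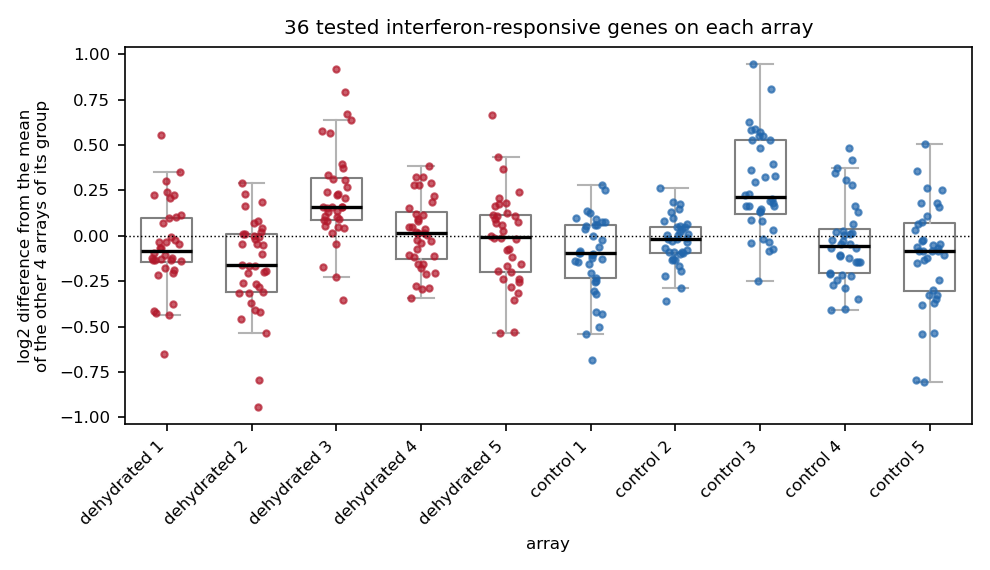
For each of the 10 arrays, the log2 difference of the 36 tested genes from the mean of the other 4 arrays of the same group (points, 1 a gene; box, their interquartile range; heavy line, their median; whiskers, the farthest values within the usual limits of a box plot). Dehydrated 3 and control 3 have the highest medians of their groups, 0.16 and 0.21.

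These differences varied among the genes. Mx2 was 1.89-fold above the other dehydrated arrays on dehydrated 3 and 1.93-fold above the other control arrays on control 3. On its dimmer probe set, dehydrated 3 read 114.3 beside 53.3 to 85.2, but control 3 read 61.2 beside 23.6 to 61.9. For Isg15 the folds were 1.73 and 1.49, and for Rtp4 they were 1.49 and 1.54. Of the 7 cytoplasmic effectors, 5 were highest on both arrays, with median log2 differences of 0.57 and 0.55. For Isg15, Usp18 and Trim25 the medians were 0.31 and 0.57, with 2 highest on both, and for the 4 membrane factors 0.15 and 0.13, with 3 highest on both. For the 5 proteasome genes they were 0.14 and 0.08, with 1 highest on both, and for Tap1, Tap2 and B2m 0.05 and 0.14, with 0 highest on both. Whether the roles differ in this was not tested. Of the genes too dim for the test, Cxcl10 was also highest on both arrays, at 36.4 and 34.6.

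**Figure D5:**
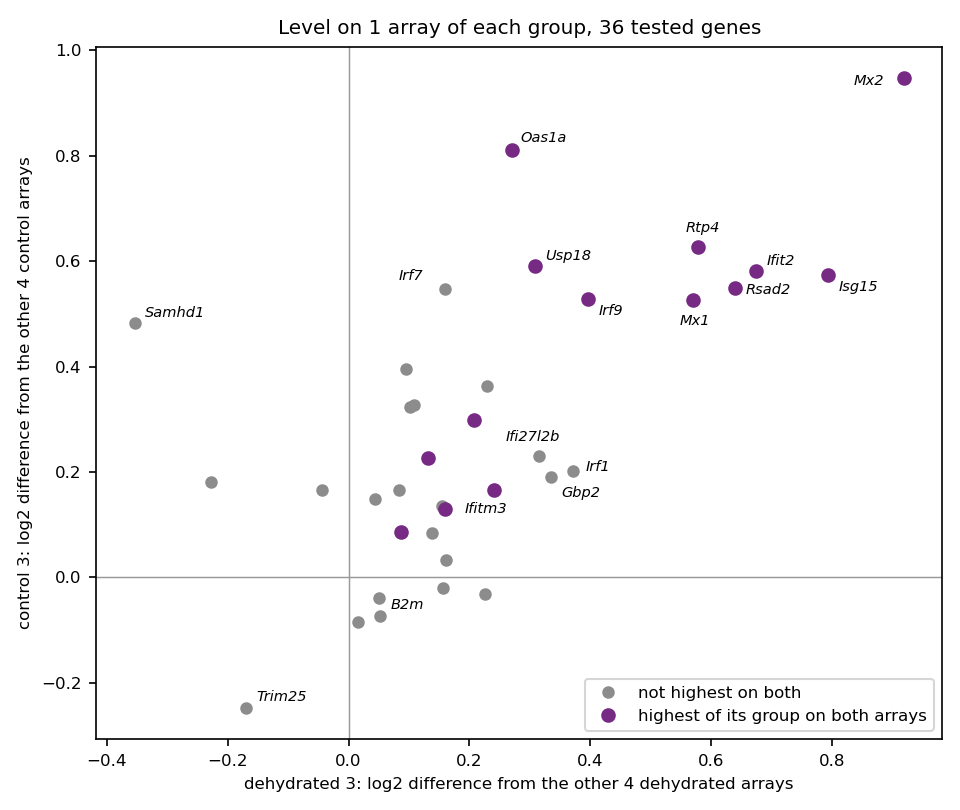
Log2 difference of dehydrated 3 from the other 4 dehydrated arrays (horizontal) and of control 3 from the other 4 control arrays (vertical), for the 36 tested genes (points). Each gene is shown by the probe set chosen for it. The 14 genes highest on both arrays lie in the upper right, with Mx2 farthest out at 0.92 and 0.95.

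With dehydrated 3 and control 3 both left out, 6 of the 9 calls held, Isg15, Usp18, Ifitm2, Ifitm3, Oas1a and Rtp4, and those of Ifitm1 (adjusted p = 0.105 in limma), B2m (0.220) and Ifi27l2b (0.121) were lost. The log2 change of Isg15 was then 1.28 and that of Oas1a 0.81.

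Markers of other cell types on these arrays are given beside this pattern, and their part in it was not tested. Median log2 differences on dehydrated 3 and control 3 varied by list. Tested endothelial markers had 0.19 and 0.18, and fibroblast and meningeal ones 0.20 and 0.07. Markers of the anterior lobe, the neighbouring part of the gland, had 0.19 and 0.83. Macrophage and microglial markers had 0.07 and -0.19, pituicyte and astroglial ones 0.05 and -0.12, and melanotroph ones -0.23 and 0.14. The summed signal of 12 endothelial markers was highest in its group on dehydrated 3 (1935, group range from 1559) and on control 3 (1467, group range from 1101), and Kdr, Flt1 and Tek were the 3 of 11 tested ones highest on both. The summed signal of 10 fibroblast and meningeal markers was also highest on both (12297 and 7625, with ranges from 9862 and from 6945). Of these 10, Lum and Pdgfra were the 2 highest on both, and Mgp, the brightest, was highest on neither. Macrophage and microglial markers did not follow, their sum being the third highest of the group on dehydrated 3 and the lowest on control 3. Of 14 T and NK cell markers, 11 were too dim to be tested, with sums of 227.0 to 269.1 and 237.5 to 290.4. The melanotroph sum was the lowest of its group on dehydrated 3 and the highest on control 3. The sum of 8 anterior lobe markers was the highest of the control group on control 3 (7973, group range from 2587). On dehydrated 3 that sum was the second of the dehydrated group (6874, group range 4837 to 9424). Gh1, Prl, Lhb, Fshb and Cga were each the highest of the controls on control 3, while Tshb was highest on control 4. The log2 ratio of 3' to 5' signal for beta-actin and GAPDH, a sign of RNA quality, was the third highest of its group on dehydrated 3 (2.15) and the second lowest on control 3 (1.52).

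Summed signals of several cell type lists also lay apart between the groups or had called members. Endothelial sums were 1559 to 1935 in dehydrated rats and 1101 to 1467 in controls. Of 11 tested endothelial markers 3 were called higher, Kdr (log2 0.63), Flt1 (0.90) and Emcn (0.51), and 8 had a positive and 3 a negative change, with Pecam1 at -0.01, Cldn5 at -0.05 and Tie1 at -0.26 not called. Of 14 tested macrophage and microglial markers, 3 were called higher, Aif1 (log2 0.42), P2ry12 (0.72) and Ctss (0.47). In that list 11 changes were positive and 3 negative, Cd68 (log2 -0.74, adjusted p = 0.0810 in limma), Mrc1 (-0.32) and Lyz2 (-0.21), none of the 3 called, and the sums were 4964 to 6417 and 4347 to 5402. Fibroblast and meningeal sums did not overlap, with 4 of 10 markers called higher, Dcn (log2 0.43), Lum (0.55), Postn (1.24) and Mgp (0.99). Here 7 changes were positive and 3 negative, Col1a2 (log2 -0.175), Fn1 (-0.04) and Igf2 (-0.37), none of the 3 called. Mgp was the brightest marker in these sums, with means of 5103.9 in dehydrated rats and 2544.2 in controls. Pituicyte and astroglial sums did not overlap either (5215.5 to 5936.9 and 4659.6 to 5099.1), with 3 of 9 markers called higher, Gfap (log2 2.38), Slc1a3 (0.36) and Lhx2 (0.39). Of the 9, 6 had a positive change and 3 a negative one, S100b (log2 -0.21), Aqp4 (-0.22) and Rax (-0.19), none of the 3 called. Melanotroph sums were lower in dehydrated rats without overlap (4549 to 5291 and 5499.5 to 6274), with 1 of 6 markers called lower, Pcsk2 (log2 -0.88). All 6 changes were negative. Avp (log2 1.38) and Oxt (0.83) were both called higher, with sums of 3314 to 4552 and 1850 to 2037. Of 6 tested anterior lobe markers, 5 changes were positive and 1 negative, that of Fshb (log2 -0.86), which was called lower. The part of these lists in the higher levels of the 9 genes was not tested. The mean log2 ratio of 3' to 5' probe sets was 2.15 ± 0.38 in dehydrated rats and 1.78 ± 0.48 in controls (SD, n = 5 each; exact permutation test, two-sided p = 0.214), a difference of 0.37. With this ratio as a covariate in limma, the calls of Usp18 (adjusted p = 0.0569), B2m (0.0836) and Ifi27l2b (0.0801) were lost. Those of Isg15, Ifitm1, Ifitm2, Ifitm3, Oas1a and Rtp4 were kept, and Lgals3bp gained one.

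Beyond the 41 genes, 6 lists of the interferon pathway were read in the same fit, and 3 of their 99 tested genes were called higher and 1 lower. Over all tested probe sets the shares were 1.68% and 0.784%. At an unadjusted p under 0.05 in limma, 27 of the 99 were higher and 3 lower, where 8.7% and 8.66% of all tested probe sets were. Ligands and receptors had 0 called of 6 tested (limma; 2 at an unadjusted p under 0.05), the one of smallest p being the receptor chain Ifngr2 (log2 0.28, adjusted p = 0.190). Of the 12 interferons listed, 9 had no probe set of their own and were not measured here. The other 3 were below the filter and not tested, with signals over all 10 arrays of 0.5 to 1.7 for Ifnb1, 0.3 to 9.1 for Ifng and 0.7 to 15.0 for Ifnk. Signal transduction, from the kinases to the brakes of the pathway, had 0 called of 14 (limma; 0 at an unadjusted p under 0.05), Irf2, an antagonist of Irf1, having the smallest p (log2 -0.30, adjusted p = 0.299). Nucleic acid sensing had 0 called of 12 (limma; 3 at an unadjusted p under 0.05), led by the RNA receptor Tlr7 (log2 0.45, adjusted p = 0.124).

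Of 14 class I heavy chain and peptide loading genes, 1 was called, the disulfide isomerase Pdia3, which was lower (log2 -0.32, adjusted p = 0.0162 in limma). In this list 8 changes were positive and 6 negative, and at an unadjusted p under 0.05 in limma 5 genes were higher and 1 lower. RT1-T24-3 had the largest change of the 99 genes but was not called (log2 1.00, adjusted p = 0.110 in limma). Its signals were 44.0 to 224.1 in dehydrated rats and 46.4 to 81.0 in controls. The call of Pdia3 was lost without dehydrated 3, without control 4, with the mean of its probe sets and with no intensity trend. Over all alternatives run its adjusted p in limma reached 0.368, and its log2 change lay between -0.42 and -0.14. The constitutive proteasome had 0 called of 14 (limma; 4 at an unadjusted p under 0.05) and a median log2 change of 0.10, beside 0.20 for the 5 immunoproteasome and activator genes. Of 39 other interferon-induced genes, 3 were called higher, Sp110, a nuclear body protein (log2 0.42, adjusted p = 0.0264), Ifi27, a relative of Ifi27l2b (0.37, 0.0204), and Ly6e, a membrane-anchored protein (0.36, 0.0345). All 3 calls were lost without dehydrated 3 and without control 1, 2 or 4. That of Sp110 was also lost without dehydrated 1 or 2 and without control 3 or 5, and that of Ly6e without dehydrated 1 or 4 and without control 5. Over all alternatives run, the adjusted p reached 0.883 for Sp110, 0.200 for Ifi27 and 0.107 for Ly6e. Of these 39 genes, 5 (Herc6, Sp100, Dtx3l, Ifi27 and Slfn5) were highest of their groups on both dehydrated 3 and control 3, where 2.17% of all tested probe sets were. In the other lists it was 1 each, Ifnar1 of 6 ligands and receptors, Pias3 of 14 in signal transduction, Eif2ak2 of 12 in sensing, RT1-CE16 of 14 in class I and peptide loading, and Psmb5 of 14 in the constitutive proteasome.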

How the data were processed

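Total RNA of 10 pools was amplified and hybridised to Affymetrix Rat Genome 230 2.0 arrays, per the labels. Each deposited value is the linear intensity of a probe set on an array. The submitters' processing notes name GCOS 1.2, the software of the array maker, and its algorithm and scaling target are not given in the sources used here. With 2% of probe sets trimmed from either end, the mean was 100.0 on every array, so no further scaling was applied and changes are relative to the average probe set. Detection calls were not used here, so signal over background is unknown, and precision is set by how many arrays there are.

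Of 31099 probe sets, 57 controls were left out. Of the others, 20826 had 1 symbol, 436 several and 9780 none, and only those with 1 named a gene. The platform annotation can be old; matching the listed genes by gene ID to the RefSeq table of assembly GRCr8 changed 0 symbols. Values were taken as log2(signal + 5), the brightest 60% by mean were kept (18625), and the groups were fitted in R 4.3.3 by limma 3.58.1 (lmFit, then eBayes with its trend option, two-sided, Benjamini-Hochberg over all kept probe sets, threshold 0.05). The fit was tested on simulated data. The files name no genome build, and coordinates come only from the RefSeq promoter table. The 3' to 5' ratio was compared by an exact permutation test over 252 splits. Alternatives changed the scaling, pseudocount, filter, probe set rule, variance model, a covariate for the 3' to 5' ratio, and the arrays used. Values on every array are printed for genes that were called, whose groups did not overlap or that had a lone array far from the rest, and for the 4 of widest spread within a group; each pathway list is shown by up to 4 called genes or, with none, the gene of smallest p. The listed genes, the other lists and these rules were chosen with earlier results of these data known.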

Additional observations from a re-analysis of the deposited data

Results flagged for a closer look

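In 72 groups of 5 arrays (36 genes, dehydrated and control), the gap between the highest or lowest array and its nearest neighbour was set against the range of the group. This was done on the log2 scale. The ratio passed Dixon's 95% critical value of 0.71 in 6 of the 72 (8.33%). Chance gives about 1 in 20, and over both groups of all tested probe sets the share was 5.65%. The genes move together on single arrays, and high single arrays were known from earlier results of these data, so the 6 are listed as values only. In 4 of them the array was control 3. For Isg15, control 3 read 183.9 and the other control arrays 115.0 to 128.8 (ratio 0.76). For Usp18, it read 218.2 beside 132.0 to 148.5 (ratio 0.767). For Igtp, it read 150.8 beside 112.5 to 120.1 (ratio 0.778). For Irf9, it read 194.2 beside 125.7 to 138.0 (ratio 0.787). Dehydrated 3 stood apart for Rsad2, at 241.8 beside 149.5 to 158.6 (ratio 0.878). The 1 gap on the low side was that of Ifitm1 on dehydrated 1, at 491.5 beside 630.9 to 691.9 (ratio 0.73).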

How the results depend on the processing

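The count of 9 listed genes called higher was 5 with no filter on dim probe sets and 4 with no intensity trend. With 1 array left out it lay between 4 and 11, the count being 4 without dehydrated 3 and 5 without control 2 or control 5. In the remaining alternatives it was 6 to 10, and 0 genes were called lower in any. No called gene changed the sign of its log2 change. Of the 9, 5 lost their call in at least 1 alternative: Usp18, Ifitm1, Oas1a, B2m and Ifi27l2b, and 3 others, Ifit2, Lgals3bp and Ifi44, gained one. The causes were not tested. Dehydrated 3 was the highest of its group for 13 genes under quantile or cyclic loess normalization and for 18 to 20 under the other scalings, pseudocounts and filter tried, and control 3 for 22 or 23. For RNA integrity, the exact p of the 3' to 5' ratio was 0.0476 without control 1 (difference 0.56, range 0.24 to 0.56 with 1 array left out) and 0.0286 without dehydrated 5 and control 1 (0.69). Leaving out dehydrated 3 and control 3 together, and the alternatives for the highest array and the ratio, were added after the data were seen. No paired analysis was possible because the labels give no replicate numbers and arrays were numbered in the order of deposition.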
